A study of Homo sapiens with 6 samples.

Results

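Long intergenic noncoding RNA (lincRNA) genes are transcribed from the stretches between protein-coding genes into RNAs that are mostly spliced and polyadenylated but carry no long open reading frame. Some act in the nucleus on chromatin, some bind proteins or other RNAs in the cytoplasm, some are the precursors of microRNAs, and most have no described function. As a class they are less abundant than mRNAs and more restricted to particular tissues and tumours, and hepatoma cells are known to express a number of them.

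The expressed lincRNA genes of Huh7 cells were selected on their raw counts: 221 genes of the gene type lincRNA had at least 300 counts summed over the 6 libraries. The deposited table holds 58735 genes, of which 7629 are lincRNA genes, and 3809 of these had a count of 0 in every library. A further 6 lincRNA genes reached 300 counts and were set aside by name (MALAT1, NEAT1 and SNHG genes). The members nearest to the minimum, AC026401.3 and LINC00526, had 300 counts each, and the closest genes below it, AL355338.1 and AP003469.4, had 299 and 297. The minimum uses both groups together, so it fixes the level of the members and not the direction of a change, although 19 members had 150 counts or more in only 1 group. All 221 passed the filter on low counts.

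The study worked in Huh7, an established cell line from a human hepatocellular carcinoma, kept in RPMI-1640 medium with fetal bovine serum. It compared cells carrying a hairpin against the integrin subunit gene ITGB5 (shITGB5, 3 libraries) with cells carrying a control hairpin (shcontrol, 3 libraries). Libraries were made with a directional kit. The number of hairpins, the use of clones or pools and the time after knockdown have no statement in the labels, nor is it said that replicates are independent cultures, so every p-value rests on library-to-library spread that may be only technical. Totals lay at 16563911 to 18011313 counts in shITGB5 libraries and at 15777922 to 17476580 in shcontrol libraries. ITGB5 itself had 173, 181 and 174 CPM (counts per 1000000 counts of the library, with library sizes scaled by the trimmed mean of M-values) in shITGB5 libraries and 205, 214 and 217 CPM in shcontrol libraries, a log2 change of -0.27 (SE 0.032, edgeR adjusted p = 2.13e-09, exact permutation p = 0.1, the smallest that 3 libraries against 3 allow). All 10 hepatocyte and hepatoma markers were measured, with ALB at 3253 CPM in shITGB5 and 2878 CPM in shcontrol libraries, and 7 of them rose. Of 15 markers of blood, endothelial and fibroblast cells 7 were tested and 1 rose, LUM, with a log2 change of 0.22. LUM had 170 CPM in shITGB5 and 146 CPM in shcontrol libraries. Over all genes tested, 8.31% rose. Among protein-coding genes with at least 3000 summed counts, 27.4% passed in either direction. The part of these marker changes in the results on lincRNA genes was not tested.

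Sequences of members on which the results turn are given here, in the transcript's direction. NORAD, a cytoplasmic RNA that binds the Pumilio proteins, holds 15 copies of the Pumilio element TGTANATA in its single exon of 5339 bases (GENCODE 29), and 4 of these are shown because NORAD was the most abundant gene described here and rose slightly. The capitals mark the element, searched on the transcript strand with 11 bases on each side, and positions count from the first base of the transcript.
NORAD, position 761: tggaaggcctgTGTATATAatatgaaaaag
NORAD, position 1241: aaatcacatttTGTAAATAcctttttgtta
NORAD, position 2466: gaataacacttTGTAAATAgcttttaaaaa
NORAD, position 2972: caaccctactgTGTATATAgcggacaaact
The element is in the longest transcript of 36 of the 221 members (16.3%), and of 14.6% of all 772 lincRNA genes tested. HCG11, a lincRNA of chromosome 6, held the most, 16 copies in 5696 bases, and FTX held 7. A match to these letters is a description of the sequence, not a site that was shown to be bound.

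The promoters of LINC00654, which fell, and LINC00847, which rose, are shown because they belong to members that moved in opposite directions. They run from 250 bases before to 50 after the RefSeq start (GRCh38.p14), and 73 members had a promoter under their symbol. Capitals mark matches on either strand to any of 6 motifs. The core promoter motifs searched were the TATA box, spelled TATAAA, the GC box bound by Sp1, spelled GGGCGG, and the CCAAT box bound by NF-Y. The others were an ETS factor motif, spelled CCGGAAG, the AP-1 motif, spelled TGANTCA, and the cyclic AMP response element in its full palindromic form, spelled TGACGTCA. No motif letters overlap another match in these windows.
LINC00654, chr20:5504547-5504846, minus strand: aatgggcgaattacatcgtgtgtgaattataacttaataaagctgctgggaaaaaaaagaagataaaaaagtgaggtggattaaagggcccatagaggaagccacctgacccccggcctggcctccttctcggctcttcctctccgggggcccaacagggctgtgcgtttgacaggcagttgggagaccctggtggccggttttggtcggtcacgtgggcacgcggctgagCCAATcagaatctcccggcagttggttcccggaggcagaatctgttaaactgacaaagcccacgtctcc
LINC00847, chr5:180830707-180831006, plus strand: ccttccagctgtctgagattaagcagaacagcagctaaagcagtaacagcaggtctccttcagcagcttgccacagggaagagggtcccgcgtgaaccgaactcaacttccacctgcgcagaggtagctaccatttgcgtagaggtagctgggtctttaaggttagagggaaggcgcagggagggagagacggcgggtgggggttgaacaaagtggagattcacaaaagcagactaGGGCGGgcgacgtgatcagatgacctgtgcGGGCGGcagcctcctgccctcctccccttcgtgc
LINC00654 held 1 CCAAT box and LINC00847 held 2 GC boxes, and neither window held the other motifs. CCAAT is found in 42.0% of the 88 promoters of members and in 34.6% of all 35116 RefSeq promoters of this length, and GGGCGG in 47.7% of the promoters of members and in 45.0% of all. The G and C content was 54.3% in the LINC00654 window and 58.0% in that of LINC00847, beside a median of 59.3% for the promoters of members and 58.7% for all promoters.

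The summed level of the expressed lincRNA genes was 2809, 2805 and 2840 CPM in shITGB5 libraries and 2781, 2829 and 2780 CPM in shcontrol libraries. The groups overlapped, with means of 2818 CPM ± 19.3 in shITGB5 libraries and 2797 CPM ± 28.3 in shcontrol libraries (SD, n = 3 each), 0.770% apart. The means differed by less than the SD of shcontrol libraries and by more than that of shITGB5 libraries. No test was made of this sum. In bulk RNA, fewer cells that express a gene and less RNA per cell cannot be told apart. The members took 0.280% to 0.283% of all counts in shITGB5 libraries and 0.278% to 0.282% in shcontrol libraries. Over all lincRNA genes of the table, 2361, 2359 and 2416 were above 0 in shITGB5 libraries and 2440, 2453 and 2464 in shcontrol libraries. All shITGB5 libraries were below all shcontrol libraries in this number, and so they were over all genes of the table, with 25856, 26143 and 26110 genes above 0 in shITGB5 libraries and 26795, 26976 and 26821 in shcontrol libraries.

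Levels of single members were low. The median member lay at 5.61 CPM over the 6 libraries, against 30.3 CPM for the protein-coding genes tested, and 95 members were under 5 CPM while 5 were above 50. Per length, the median was 2.63 FPKM (CPM per kilobase of the deposited gene length) for members and 5.65 FPKM for protein-coding genes. Among the genes described here, NORAD had the highest count level, with 279.6 CPM ± 8.37 in shITGB5 libraries and 263 CPM ± 8.82 in shcontrol libraries. EBLN3P, a pseudogene of an endogenous bornavirus-like nucleoprotein element, followed with 127 CPM ± 3.18 in shITGB5 libraries and 132 CPM ± 0.764 in shcontrol libraries. LINC01419 had 82.2 CPM ± 3.0 in shITGB5 libraries and 85.0 CPM ± 4.01 in shcontrol libraries. AC245041.2 had 77.1 CPM ± 3.93 in shITGB5 libraries and 82.0 CPM ± 0.917 in shcontrol libraries, and LINC00506 had 40.8 CPM ± 1.5 in shITGB5 libraries and 42.1 CPM ± 2.77 in shcontrol libraries (SD, n = 3 each). None of the last 4 passed the test described next (edgeR adjusted p = 0.259, 0.562, 0.215 and 0.713). LINC01419 and AC245041.2 overlapped in their spread, while the gaps between the other neighbours in this order were wider than the spread of the libraries. Per length the order changed, since LINC01419 is a short gene: LINC01419 reached 54.1 FPKM in shITGB5 and 55.9 FPKM in shcontrol libraries, NORAD 52.4 FPKM in shITGB5 and 49.3 FPKM in shcontrol libraries, AC245041.2 31.3 FPKM in shITGB5 and 33.3 FPKM in shcontrol libraries, and LINC01608 20.1 FPKM in shITGB5 and 24.5 FPKM in shcontrol libraries.

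Few lincRNA genes changed. Of the 221 members, 7 rose and 7 fell (edgeR quasi-likelihood test, Benjamini-Hochberg adjusted p under 0.05 over 16577 genes), which is 6.33% of the members, while 15.1% of all genes tested passed, 8.31% upward and 6.74% downward. DESeq2 called 5 members, 2 upward and 3 downward, and gave no adjusted p for 5 of the 14. Without shcontrol replicate 3 edgeR called 8 members, without shcontrol replicate 1 it called 2 upward, and against a fold of 1.2 it called 0. Calls over all genes tested were also fewer in these fits. They were 11.5% with DESeq2, 12% without shcontrol replicate 3, 11.8% without shcontrol replicate 1 and 0.899% against a fold of 1.2. The groups did not overlap for 49 members (22.2%), against 28.5% of all genes tested. The changes of members were balanced around 0, with 115 positive and 106 negative log2 changes, a median of 0.01 for members and of -3.64e-05 for all genes tested. For 169 of the 221 members the fitted change was under 1.2-fold in either direction, and so it was for 13210 of the 16577 genes tested. The median absolute log2 change was 0.129 for members and 0.113 for all genes tested. Member values were less precise than those of other genes: the median SE of the log2 change was 0.16 for members and 0.089 for all genes tested, and the median summed count was 574 and 1966.

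The share of genes that passed climbed with the summed count in both lincRNA and coding genes. With 300 to under 1000 summed counts, 6 of 159 members passed (3.77%), against 5.8% of 1758 protein-coding genes. With 1000 to under 3000 counts, 6 of 52 members passed (11.5%), against 12.6% of 2981 coding genes. With at least 3000 counts, 2 of 10 members passed, against 27.4% of 6805 coding genes. In each of these ranges the share of members was below that of coding genes, with few members in the highest range, and the difference was not tested.

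**Figure D1:**
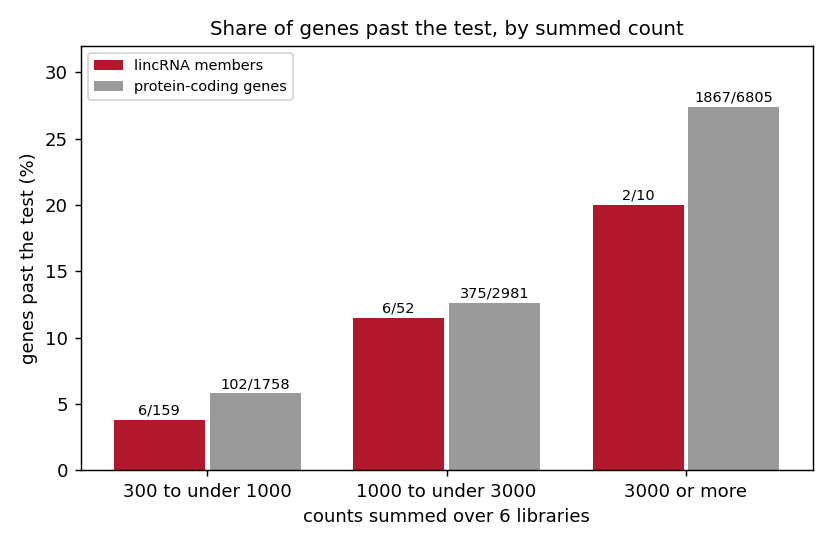
Percentage of genes past the edgeR test (y axis) by counts summed over the 6 libraries (x axis), for lincRNA members (left bars) and protein-coding genes (right bars), with passed and tested numbers above each bar. Shares climb with the count in both classes, to 20% of 10 members and 27.4% of coding genes in the highest range.

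**Figure D2:**
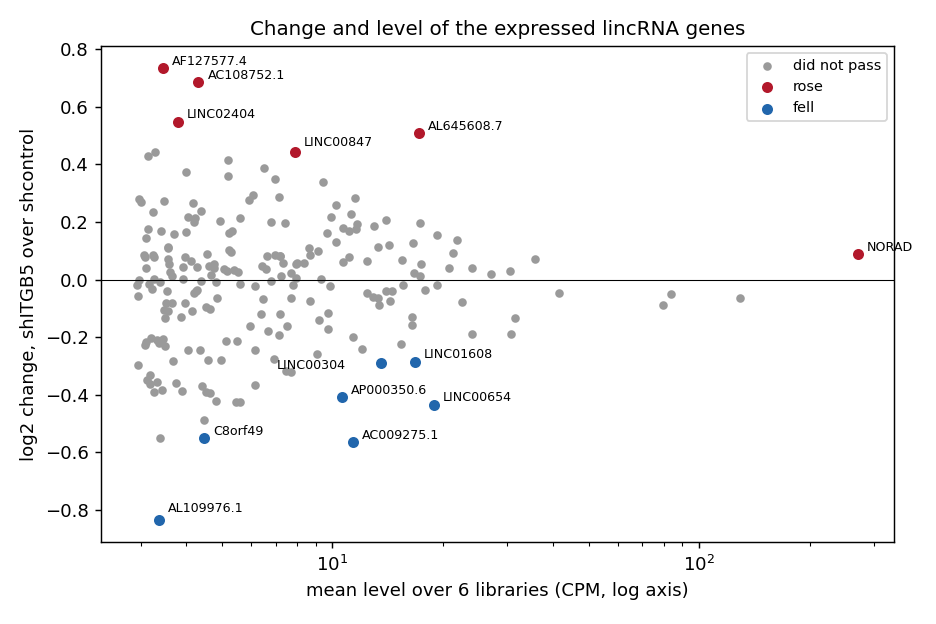
Log2 change of shITGB5 over shcontrol libraries (y axis) against the mean level over 6 libraries in CPM (x axis, log scale) for the 220 members that are plotted, each a point, coloured by whether it rose, fell or did not pass the edgeR test. The larger changes belong to members of a few CPM, and NORAD stands alone at 271 CPM with a log2 change of 0.09.

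Of the 7 members that rose, 6 are described here. AL645608.7 (ENSG00000272512, chromosome 1, 995966 to 998051, minus strand, GRCh38), a gene of 1 exon, had 18.6, 19.8 and 22.3 CPM in shITGB5 libraries and 11.4, 14.2 and 17.2 CPM in shcontrol libraries. All shITGB5 libraries were above all shcontrol libraries, although the control libraries were spread widely, and the log2 change was 0.51 (SE 0.10, edgeR adjusted p = 0.000153). AF127577.4 (ENSG00000235609, chromosome 21, 14818843 to 15014430, minus strand) had 4.29, 4.42 and 4.2 CPM in shITGB5 libraries and 2.06, 2.86 and 2.85 CPM in shcontrol libraries. This was the largest rise among members, with no overlap between the groups and a log2 change of 0.73 (SE 0.20, edgeR adjusted p = 0.00768). Its gene body overlaps NRIP1, a nuclear receptor corepressor gene on the same strand that had 796% of its counts and did not pass (log2 change -0.04, edgeR adjusted p = 0.802).

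AC108752.1 (ENSG00000240241, chromosome 3, 78266940 to 78294731, plus strand) had 6.18, 4.24 and 5.51 CPM in shITGB5 libraries and 2.75, 3.40 and 3.80 CPM in shcontrol libraries. The groups did not overlap, and the log2 change was 0.69 (SE 0.19, edgeR adjusted p = 0.00580). LINC02404 (ENSG00000257893, chromosome 12, 91877391 to 91880655, plus strand) had 4.57, 4.24 and 4.72 CPM in shITGB5 libraries and 3.04, 3.04 and 3.17 CPM in shcontrol libraries. Its libraries were tight within each group, with a log2 change of 0.55 (SE 0.19, edgeR adjusted p = 0.0388), yet the gene missed the threshold when any 1 library was left out (0.0552 to 0.118). LINC00847 (ENSG00000245060, chromosome 5, 180830957 to 180835726, plus strand) had 8.24, 11.2 and 7.90 CPM in shITGB5 libraries and 6.88, 6.50 and 6.65 CPM in shcontrol libraries. The second shITGB5 library stood well above the others and carried much of the log2 change of 0.44 (SE 0.14, edgeR adjusted p = 0.0203): without it the change was 0.27 (adjusted p = 0.296). LINC00847 overlaps HEIH, a noncoding RNA gene on the other strand with 132% of its counts, which did not pass (log2 change 0.01, edgeR adjusted p = 0.972).

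NORAD (ENSG00000260032, chromosome 20, 36045622 to 36050960, minus strand), which keeps Pumilio proteins from repressing mitosis and repair mRNAs, had 282, 270 and 287 CPM in shITGB5 libraries and 261, 273 and 255 CPM in shcontrol libraries. The groups overlapped, since the second shITGB5 library lay below the second control library. NORAD rose by 6.24%, a log2 change of 0.09 (SE 0.030, edgeR adjusted p = 0.0350), and it missed the threshold without shITGB5 replicate 1 or 3 and without shcontrol replicate 1 or 3 (0.111 to 0.235), and with DESeq2 (adjusted p = 0.0630). PUM2, the gene of a Pumilio protein that NORAD binds, had 114 CPM ± 1.60 in shITGB5 libraries and 113 CPM ± 5.88 in shcontrol libraries and did not pass (edgeR adjusted p = 0.863). A further member of high count also rose and is included in all counts without being described singly.

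All 7 members that fell are described here. AC009275.1 (ENSG00000273297, chromosome 7, 134416290 to 134432453, minus strand) had 9.47, 10.0 and 8.07 CPM in shITGB5 libraries and 13.99, 13.4 and 13.4 CPM in shcontrol libraries. The groups lay far apart, with a log2 change of -0.57 (SE 0.11, edgeR adjusted p = 0.000175). LINC00654 (ENSG00000205181, chromosome 20, 5496067 to 5504613, minus strand) had 17.7, 14.8 and 15.7 CPM in shITGB5 libraries and 22.6, 22.1 and 20.4 CPM in shcontrol libraries. It fell by 26.1% (log2 change -0.44, SE 0.090, edgeR adjusted p = 0.000214), with all control libraries above all shITGB5 libraries. AL109976.1 (ENSG00000277287, chromosome 20, 3239705 to 3245382, plus strand), a gene of 1 exon, had 2.84, 2.48 and 1.93 CPM in shITGB5 libraries and 4.07, 5.13 and 3.74 CPM in shcontrol libraries. This was the largest change of any member in either direction, a log2 change of -0.83 (SE 0.21, edgeR adjusted p = 0.00304), at one of the lowest levels.

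AP000350.6 (ENSG00000273295, chromosome 22, 23901432 to 23907068, minus strand), also of 1 exon, had 8.74, 9.44 and 9.15 CPM in shITGB5 libraries and 12.6, 11.9 and 11.7 CPM in shcontrol libraries. Both groups were tight and apart, with a log2 change of -0.41 (SE 0.12, edgeR adjusted p = 0.00908). C8orf49 (ENSG00000255394, chromosome 8, 11761256 to 11763223, plus strand) had 3.45, 3.81 and 3.58 CPM in shITGB5 libraries and 4.76, 4.77 and 6.39 CPM in shcontrol libraries. The third control library stood above the others, and the log2 change of -0.55 (SE 0.18, edgeR adjusted p = 0.0258) became -0.40 without it (adjusted p = 0.211). LINC01608 (ENSG00000253877, chromosome 8, 110937690 to 111027433, minus strand) had 14.1, 15.6 and 15.7 CPM in shITGB5 libraries and 18.2, 19.3 and 17.7 CPM in shcontrol libraries, a log2 change of -0.28 (SE 0.093, edgeR adjusted p = 0.0263). LINC00304 (ENSG00000180422, chromosome 16, 89159146 to 89164245, plus strand) had 11.4, 13.6 and 11.8 CPM in shITGB5 libraries and 15.0, 14.02 and 15.8 CPM in shcontrol libraries, a log2 change of -0.29 (SE 0.10, edgeR adjusted p = 0.0493). The groups did not overlap in either, but LINC01608 missed the threshold without shITGB5 replicate 1 (0.136) or shcontrol replicate 1 or 2 (0.0553 and 0.114), and LINC00304 without shITGB5 replicate 1 or 3 or shcontrol replicate 1 or 3 (0.108 to 0.191). LINC00304 lies within ACSF3, a mitochondrial acyl-CoA synthetase gene on the same strand with 195% of its counts and a log2 change of -0.15 (edgeR adjusted p = 0.222).

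**Figure D3:**
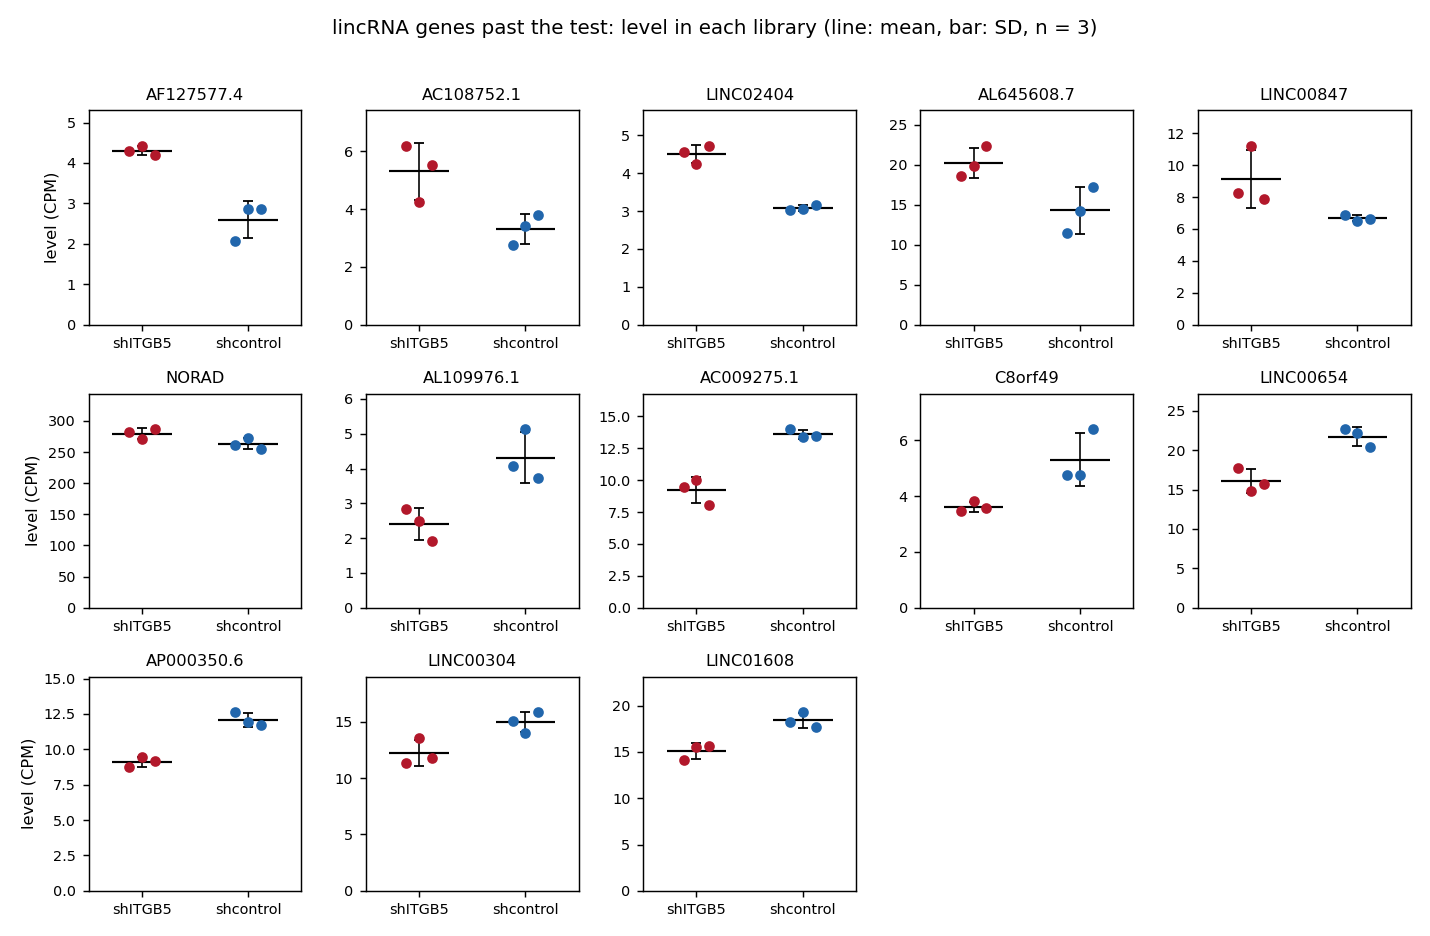
Level in CPM (y axes, from 0) of the 13 described members past the edgeR test, with each library as a point, shITGB5 left and shcontrol right, the mean as a line and the SD as a bar (n = 3). The groups are apart in every panel except that of NORAD, where 270 CPM in a shITGB5 library lies below 273 CPM in a control library.

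LINC00847, LINC00304 and LINC01608 also missed the threshold with DESeq2 (adjusted p = 0.0562, 0.0962 and 0.0559). Of these 13 genes, 5 passed without any 1 library in turn: AL645608.7, AC009275.1, LINC00654, AL109976.1 and AP000350.6. The other 8 each missed the threshold in at least 1 of those fits, among them C8orf49, which also missed it without shITGB5 replicate 1 (0.0766) or 3 (0.0672), AC108752.1 without shITGB5 replicate 1 or shcontrol replicate 1 (0.0666 and 0.0596), AF127577.4 without shcontrol replicate 1 (0.0712), and LINC00847, which also missed it without shcontrol replicate 2 or 3 (0.0634 and 0.0607). AL109976.1 and AF127577.4 were the members among those past the threshold that reached 150 counts in 1 group only.

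The nearest protein-coding gene was tested for 12 of the 13 described members past the threshold, and it passed for 7 of them, in the same direction for 5. Over the 220 members looked at singly, the nearest coding gene was tested for 180 and passed for 45. AL645608.7 lies 911 bases downstream of HES4, a transcriptional repressor gene of the Notch pathway on the same strand, which had 26.2 CPM ± 0.499 in shITGB5 libraries and 20.1 CPM ± 2.23 in shcontrol libraries (SD, n = 3 each). The log2 change was 0.51 for the lincRNA gene and 0.39 for HES4 (SE 0.082, edgeR adjusted p = 0.000376). AC009275.1 lies 9897 bases downstream of AKR1B1, the aldose reductase gene on the same strand, which had 299.7 CPM ± 8.29 in shITGB5 libraries and 409.6 CPM ± 7.28 in shcontrol libraries (log2 change -0.45, SE 0.027, edgeR adjusted p = 1.38e-20). C8orf49 lies 1254 bases downstream of GATA4, a transcription factor gene of endoderm and heart on the same strand, which had 215 CPM ± 10.2 in shITGB5 libraries and 255.5 CPM ± 0.342 in shcontrol libraries (log2 change -0.25, SE 0.031, edgeR adjusted p = 3.67e-09).

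AL109976.1 starts 146 bases from the start of SLC4A11, a membrane transporter gene on the other strand, which had 71.0 CPM ± 2.58 in shITGB5 libraries and 79.0 CPM ± 2.09 in shcontrol libraries (log2 change -0.15, SE 0.046, edgeR adjusted p = 0.0133). AP000350.6 lies 6205 bases from MIF, the gene of a cytokine, which was counted at only 2.85 CPM ± 0.794 in shITGB5 libraries and 4.70 CPM ± 0.101 in shcontrol libraries (log2 change -0.72, SE 0.20, edgeR adjusted p = 0.00714). In the 2 remaining pairs the directions were opposite. LINC00654, which fell, lies 39791 bases from GPCPD1, a glycerophosphocholine phosphodiesterase gene that rose (log2 change 0.26, SE 0.070, edgeR adjusted p = 0.00625), and LINC02404, which rose, lies 259623 bases from the antiproliferative gene BTG1, which fell (log2 change -0.22, SE 0.031, edgeR adjusted p = 1.82e-07). The part of reads that run on from a neighbouring gene in these values was not tested, and the strand setting of the counting has no statement in the labels.

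**Figure D4:**
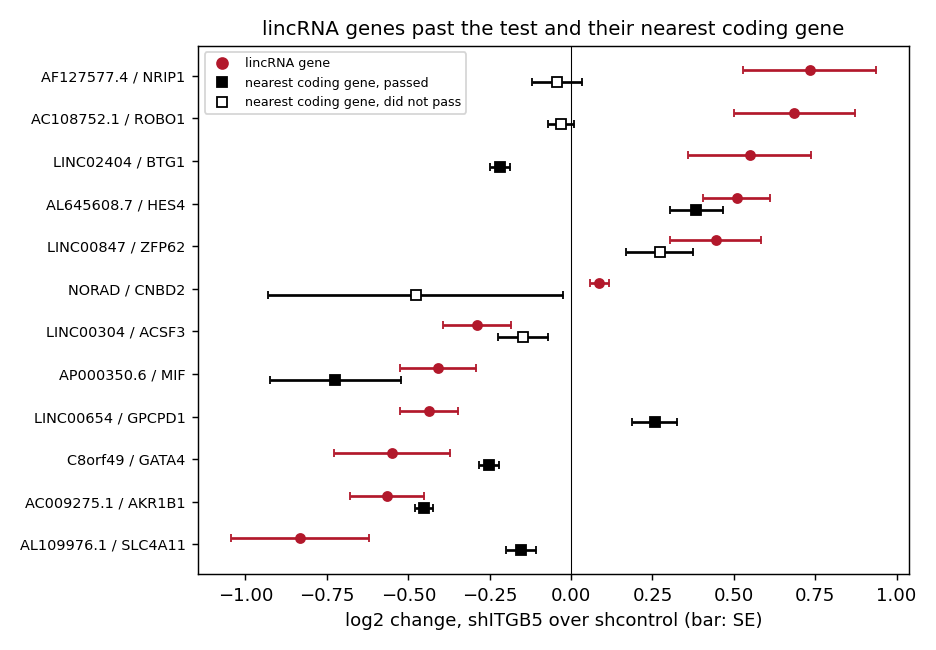
Log2 change of shITGB5 over shcontrol libraries (x axis, bar: SE) for 12 lincRNA genes past the edgeR test (circles) and their nearest protein-coding gene (squares, filled where it passed), 1 pair a row. The pairs with HES4, AKR1B1, GATA4, SLC4A11 and MIF lie on the same side of 0, and those with GPCPD1 and BTG1 on opposite sides.

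Other members near a changing gene did not pass. Within 10 kb downstream of a coding gene on the same strand, a distance chosen after the values were seen, lay 23 members, of which 3 passed, the ones beside HES4, AKR1B1 and GATA4. The coding gene was tested for 21 of these and passed for 7, in the same sign as the lincRNA gene for 4. Over all members 6.33% passed. Among protein-coding genes 12.6% passed at 1000 to under 3000 summed counts and 27.4% at 3000 or more. The difference from these shares was not tested. OLMALINC, 8679 bases downstream of the stearoyl-CoA desaturase gene SCD, had a log2 change of 0.09 (edgeR adjusted p = 0.567), while SCD rose by 0.25 (adjusted p = 7.19e-17). MIR3142HG, 9850 bases downstream of the securin gene PTTG1, had a log2 change of 0.20 (adjusted p = 0.184), while PTTG1 fell by 0.26 on the log2 scale (adjusted p = 2.10e-09).

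Divergent pairs, in which a lincRNA gene and a coding gene start head to head within 2 kb, were looked at next. There were 31 such members with 31 coding genes, all tested: 9 coding genes passed, 4 upward and 5 downward, and 1 of the lincRNA genes, AL109976.1, passed. Of all members, 6.33% passed. Of all protein-coding genes tested, 5.8% passed at 300 to under 1000 summed counts, 12.6% at 1000 to under 3000 and 27.4% at 3000 or more. The coding genes of these pairs ranged down to IRX5, at 3.05 CPM in shITGB5 and 2.48 CPM in shcontrol libraries, so not all reached 3000 counts. The signs of the fitted changes were the same in 12 of the 31 pairs, and in 4 of the 9 whose coding gene passed. PPP1R3B, a glycogen-targeting phosphatase subunit gene, rose by 0.39 on the log2 scale (edgeR adjusted p = 6.83e-09), whereas AC022784.1, which starts 121 bases away, had a log2 change of -0.11 (adjusted p = 0.810). RIPK2, a kinase gene of innate immune signalling, rose by 0.32 (adjusted p = 0.000144), and AF117829.1, 20 bases away, had a log2 change of -0.02 (adjusted p = 0.948). RAB30, a small GTPase gene, fell by 0.46 (adjusted p = 0.000154), and RAB30-AS1, 143 bases away, had a log2 change of 0.08 (adjusted p = 0.796). SLC12A2, an ion cotransporter gene, fell by 0.24 (adjusted p = 1.06e-08), and LINC01184, 594 bases away, had a log2 change of 0.14 (adjusted p = 0.337). TBC1D9 rose by 0.33 (adjusted p = 3.65e-11), and AC096733.2, 408 bases away, had a log2 change of 0.23, of the same sign, and did not pass (adjusted p = 0.213). In each of the 9 pairs whose coding gene passed, the lincRNA gene had the lower CPM and the larger SE, and the difference within a pair was not tested.

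No microRNA host gene passed, where 6.33% of all members did. Of 46 lincRNA genes named as microRNA hosts, 6 were members, and their fitted log2 changes were positive, although that of MIR4435-2HG turned negative without some single libraries (-0.0183 to 0.0803). By coordinates on the same strand, 10 members contain microRNA hairpins, with 28 mature microRNAs when miR-4435 is counted in each of its 2 hosts. The further hosts found this way had changes of both signs: MUC20-OT1, with miR-570, had a log2 change of -0.13 (SE 0.071, edgeR adjusted p = 0.233), FTX, with miR-421 among others, had -0.13, and CYTOR and AC016205.1 had 0.01 and 0.09. The mature microRNAs of the hosts with the larger changes and of 2 abundant hosts are shown 5′ to 3′, from RefSeq (GRCh38.p14), with the seed, bases 2 to 8, in capitals.
miR-34a-5p, in MIR34AHG: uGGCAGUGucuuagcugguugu
let-7c-5p, in MIR99AHG: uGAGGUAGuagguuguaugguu
miR-99a-5p, in MIR99AHG: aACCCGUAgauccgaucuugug
miR-125b-5p, in MIR99AHG: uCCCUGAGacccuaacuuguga
miR-146a-5p, in MIR3142HG: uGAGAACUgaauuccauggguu
miR-22-3p, in MIR22HG: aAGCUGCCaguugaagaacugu
These 6 seeds differ from each other, and the mature microRNAs themselves were not measured by this assay.

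MIR34AHG (chromosome 1, 9148011 to 9198906, minus strand), the host of the p53-induced miR-34a, had 11.1, 10.5 and 9.88 CPM in shITGB5 libraries and 9.0, 8.05 and 7.85 CPM in shcontrol libraries. The groups did not overlap, and the log2 change of 0.34 (SE 0.12) was just outside the threshold (edgeR adjusted p = 0.0511). MIR99AHG (chromosome 21, 15928296 to 16645065, plus strand), the host of miR-99a, let-7c and miR-125b-2, had 5.62, 5.99 and 6.19 CPM in shITGB5 libraries and 4.76, 4.83 and 3.74 CPM in shcontrol libraries. Here too the groups were apart, with a log2 change of 0.41 (SE 0.16, edgeR adjusted p = 0.0826). MIR3142HG, the host of miR-146a, had 21.3, 16.03 and 18.1 CPM in shITGB5 libraries and 17.4, 14.9 and 16.1 CPM in shcontrol libraries, and the groups overlapped. MIR22HG had 24.3 CPM ± 0.173 in shITGB5 libraries and 23.6 CPM ± 0.895 in shcontrol libraries (SD, n = 3 each), a log2 change of 0.04 (SE 0.078, edgeR adjusted p = 0.817). MIR503HG (log2 change 0.10, adjusted p = 0.769) and MIR4435-2HG (0.02, adjusted p = 0.915) did not pass. CYTOR and MIR4435-2HG are near-identical copies on chromosome 2 that both contain a miR-4435 hairpin, so their counts are uncertain.

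Of 4 members from the list of chromatin and nuclear RNAs none passed, beside 6.33% of all members. FTX, an RNA of the X inactivation centre, had 15.7 CPM ± 1.59 in shITGB5 libraries and 17.2 CPM ± 2.14 in shcontrol libraries (log2 change -0.13, SE 0.098, edgeR adjusted p = 0.455). CRNDE, named for its expression in colorectal neoplasia, had 14.4 CPM ± 1.46 in shITGB5 libraries and 14.8 CPM ± 2.03 in shcontrol libraries (-0.04, SE 0.10, adjusted p = 0.866). LINC00667 (0.12, adjusted p = 0.520) and PVT1, the neighbour of MYC (0.14, adjusted p = 0.753), had positive changes with wide errors. Of the 3 cytoplasmic RNAs, NORAD rose, while CYTOR (log2 change 0.01, SE 0.091) and EPB41L4A-AS1 (-0.07, SE 0.13) did not pass (edgeR adjusted p = 0.954 and 0.791). TP53TG1, named as a p53 target gene, had 9.13, 11.9 and 12.6 CPM in shITGB5 libraries and 11.01, 7.81 and 9.12 CPM in shcontrol libraries, with overlapping groups (0.26, SE 0.13, edgeR adjusted p = 0.190).

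Among the 4 MYC or cancer-linked RNAs, UCA1, first described in urothelial carcinoma, had the largest change. It had 5.01, 6.11 and 5.00 CPM in shITGB5 libraries and 6.77, 5.90 and 8.10 CPM in shcontrol libraries. The groups overlapped through the second library of each, and the log2 change of -0.37 (SE 0.16) did not pass (edgeR adjusted p = 0.113). LINC00662 had 11.7 CPM ± 0.266 in shITGB5 libraries and 10.5 CPM ± 0.203 in shcontrol libraries (0.17, SE 0.11, adjusted p = 0.382), and LINC00467 had 12.2 CPM ± 0.748 in shITGB5 libraries and 12.6 CPM ± 1.54 in shcontrol libraries (-0.05, SE 0.11, adjusted p = 0.853). Over the 17 members on these role lists, which do not name every RNA of known function, 1 rose, 0 fell and 16 did not pass, with a median log2 change of 0.09 and changes between -0.37 and 0.41. Of all 221 members, 6.33% passed, so the lists are too short to be set apart from members at large. A list of liver RNAs had 12 names, of which 11 were in the deposited data and 10 were of the gene type lincRNA. None of these 10 was a member: LINC00261, the highest, had 50 counts over the 6 libraries, and 4 of the 10 had a count of 0. Levels of the other names on this list are not given here.

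**Figure D5:**
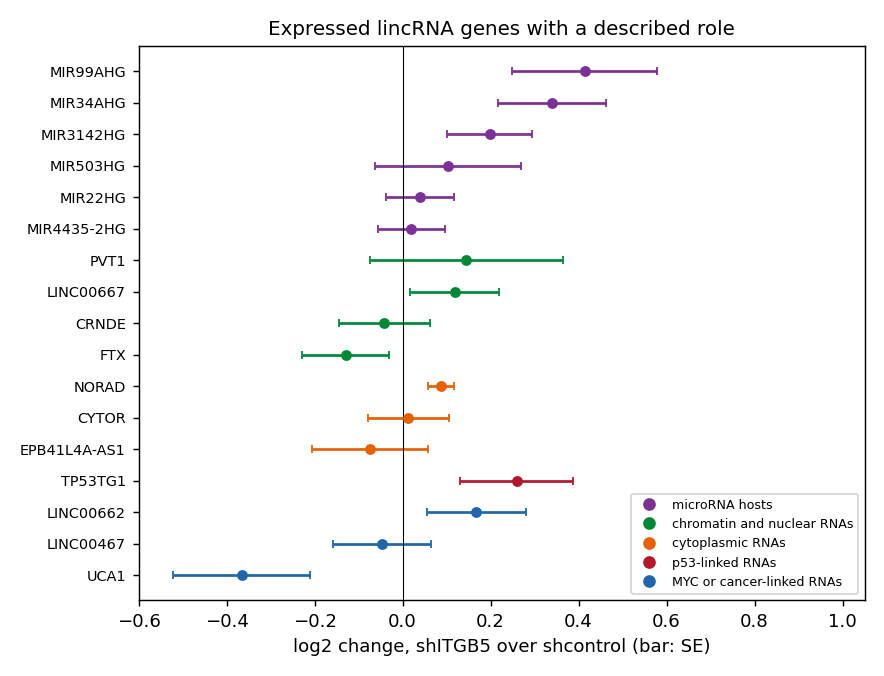
Log2 change of shITGB5 over shcontrol libraries (x axis, bar: SE) for the 17 members on the role lists, coloured by list, 1 gene a row (PVT1 stands on 2 lists and is drawn once). The 6 genes named as microRNA hosts lie right of 0 with all libraries in the fit, between 0.02 and 0.41, FTX, which also holds microRNA hairpins, lies at -0.13, and UCA1 lies farthest left at -0.37.

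Some genes of RNA decay and processing changed. Of 19 genes of the nuclear RNA exosome, which degrades unstable nuclear RNAs, and of its NEXT and PAXT adaptors, 3 rose, 2 fell and 14 did not pass, with a median log2 change of -0.01. RBM7 (0.24), EXOSC8 (0.17) and PABPN1 (0.11) rose, and EXOSC9 (-0.24) and ZFC3H1 (-0.18) fell (edgeR adjusted p = 0.0421, 0.0394, 0.0441, 0.00213 and 0.00118). Of 14 subunits of Integrator, which cleaves nascent noncoding RNAs, 0 rose and 3 fell: INTS8 (-0.17), INTS13 (-0.17) and INTS6 (-0.13), with edgeR adjusted p = 0.00803, 0.0429 and 0.0345. These shares lie beside 8.31% and 6.74% of all genes tested in each direction. Among protein-coding genes, 12.6% passed in either direction at 1000 to under 3000 summed counts and 27.4% at 3000 or more. The difference of the lists from these shares was not tested.

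An earlier analysis of these data had linked the words AGACCAA and GACCAAA to mRNAs that fell. In the longest transcript of the members, searched on the transcript strand, in which the words can overlap, 62 of 221 held at least 1 of these words (28.1%), and 18.4% of the 772 lincRNA genes tested. The lengths of the searched transcripts were not compared between these sets. Of the 62 members with a word, 2 fell and 2 rose, and of the 159 without a word 5 fell and 5 rose. Their median log2 changes were -0.01 and 0.01. Over all 221 members 6.33% passed. Another pair of words from the same source, TCGGAGA and CGGAGAA, which had been linked to mRNAs that rose, was in 22 members, of which 0 fell and 1 rose. The words in LINC00654 and AC009275.1, which fell, and in LINC02404, which rose, are shown in capitals with 11 bases on each side, because these are the matches among described members past the threshold.
LINC00654, position 405: actggagacgaAGACCAAgacaccacagc
LINC00654, position 1157: gaggatcacacAGACCAAgagtatctttg
AC009275.1, position 131: cctacaggagaAGACCAAgagacagagac
LINC02404, position 665: aaataatgtttGACCAAAtgtctgcatac
A match to a word is a description of the sequence. No base outside the longest transcript was searched.

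The members came from 23 chromosomes, with the most on chromosomes 12 (19 members) and 1 (18). In GENCODE 29, 47 members have 1 exon and 174 have several. Among the 47, 2 rose and 3 fell, and among the 174, 9 passed. The gene body of 56 members overlaps another gene with at least 300 counts. Of the 165 that overlap none, 5 rose and 6 fell. Over all 221 members 6.33% passed, and over all genes tested 15.1%. The differences by exon number and by overlap were not tested.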

How the data were processed

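RNA was sequenced from Huh7 cells with an ITGB5 hairpin or a control hairpin, 3 libraries each, and gene counts were analysed. The deposited table holds raw whole-number counts per gene, although it is named for FPKM. The alignment and counting software, and whether strand was used, are not stated in the labels. Columns coded S were taken as ITGB5 hairpin libraries and columns coded NC as control hairpin libraries, a reading the labels do not spell out. All 221 members had the position and strand of GENCODE 29 (GRCh38). The gene lengths, used for FPKM, are the authors' deposited values.

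edgeR 4.0.16 (R 4.3.3) was fitted on all genes kept by filterByExpr (16577), with TMM factors of 0.998 to 1.00, no covariate and a two-sided quasi-likelihood test, adjusted by Benjamini-Hochberg over those genes. SEs were taken from the log2 change and its F statistic. Members and lists were chosen with earlier results of these data known. Members named in the text were the 5 of highest CPM among those described, the largest 8 rises and 8 falls past the threshold of 0.05 whose groups do not overlap, and members on role lists. The rule named 1 member to leave out. It is one of the most abundant and rose. It is in the counts over all 221 members, but is not described singly, plotted, or in the counts over 13, 17 or 220 genes. Genes named as neighbours, overlapping genes, HCG11, OLMALINC and single exosome and Integrator genes were chosen after their values were seen. The fits were tested on simulated data with changed genes drawn from all tested genes above 1 CPM, not from members alone. There edgeR recovered 54% of 50 genes changed 1.2-fold, 68% at 1.5-fold, 90% at 2-fold and 94% at 3-fold. Of its calls 4.4% were genes left unchanged. Alternatives were DESeq2 1.42.0, limma-voom 3.58.1, other scalings and filters, the replicate block, other count minimums and leaving out each library.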

Additional observations from a re-analysis of the deposited data

How the results depend on the processing

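The 14 members past the threshold (7 up, 7 down) became 5 (2 up, 3 down) with DESeq2, where the adjusted p of 5 of the 14 was NA. They became 0 (0 up, 0 down) when edgeR tested against a fold of 1.2. In the edgeR test against no change, 43 of 221 members had an unadjusted p under 0.05, as had 4215 of all 16577 genes tested. At a count minimum of 1000 the members past the threshold were 8 (3 up, 5 down), with fewer members. Without a low-count filter they were 10 (6 up, 4 down), with more genes tested. Leaving out 1 library gave 8 to 15 members, 2 to 6 upward and 5 to 10 downward. Without shcontrol replicate 3 there were 8 (3 up), and without shcontrol replicate 1, 2 up. Over all genes tested in each fit, 11.5% passed with DESeq2, 0.899% against a fold of 1.2 and 6.37% without a low-count filter. With 1 library left out 11.5% to 12.9% passed, and with the replicate block 13.9%. The replicate block gave 12 (6 up, 6 down), and same-numbered libraries shared only a number, with correlations of their deviations of 0.00340, -0.0544 and -0.0155. Under the block NORAD and LINC00304 missed the threshold (0.0643 and 0.0627). No member called in the base fit and in an alternative changed direction. The summed level, at a log2 ratio of 0.0111, became -0.0043 without the most abundant member, a gene not described singly, beside an SD between libraries of 0.0124, and the cause was not tested. Named genes that passed no test and changed sign without 1 library had these ranges of the log2 change: LINC00506 -0.0939 to 0.0025, MIR4435-2HG -0.0183 to 0.0803, CRNDE -0.1456 to 0.0400, PVT1 -0.0267 to 0.2932, CYTOR -0.0457 to 0.0559, EPB41L4A-AS1 -0.1971 to 0.0073 and LINC00467 -0.1461 to 0.0146. MIR34AHG passed among genes of at least 1 CPM on average (adjusted p = 0.0491). ITGB5 fell in every alternative. The median SE of 0.16 (log2) limits what can be seen for members of a few CPM.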
